A study of Homo sapiens and Mus musculus with 6 samples.

Results

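In mouse embryonic stem cells (mESCs), 2260 distal restriction fragments were each called in contact with 5 or more different promoters. They made up 6.44% of the 35074 unbaited fragments that were called with any promoter on their own chromosome. These shared fragments took 16475 of 64333 such calls, or 25.6%. At least 1 shared fragment was called from 3716 of the 16265 promoter baits in the list, or 22.8%. The fragments were chosen by the number of different baits that called them. That number, and the reads, scores and distances of the same calls, are given below as descriptions without a test.

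The cells were J1 mESCs of the 129S4/SvJae strain, for which the labels name no genetic change or drug, grown on irradiated primary embryonic fibroblasts from which they were separated by passaging before fixation. Promoter Capture Hi-C (CHi-C) was made in 2 biological replicates, and Hi-C without capture in 1 library of the same cells. The list of calls was made on both replicates together, so no value below has a spread between replicates, and the list cannot show whether feeder cells remained. CHi-C of the human lymphoblastoid line GM12878 is not used here.

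In CHi-C, chromatin is cross-linked and cut with the restriction enzyme HindIII, ends that lie close together are ligated, and ligation products that hold a promoter fragment, the bait, are pulled down and sequenced. The fragment at the far side of a ligation product is the other end. A fragment without a bait can be seen only from the promoters that contact it, and enhancers and insulators are among the elements that contact several promoters at once. In ES cells the promoters of Hox and other developmental regulators are held silent by Polycomb complexes and are known to lie together in the nucleus, and CTCF is the best known protein that anchors chromatin loops. A call below is a pair of fragments with a CHiCAGO score of at least 5, a score that rises as the reads exceed what distance and fragment properties predict. The reads of a call are the authors' weighted mean over both replicates.

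Letters of shared fragments are shown first, taken from the mm9 reference and from stretches that overlap no annotated exon. The first set was chosen because these fragments stood among the most shared of the genome or of their chromosome and held the core of the CTCF binding motif, which reads CC, any 3 bases, AGG, any base and GGC, and whose frequency is compared further on. The 12 letters of the match stand in capitals within 60 bases, each read 5′ to 3′ on the strand of the match.
Fragment near Cntfr, stricter match, chr4:41600532-41600591, minus strand: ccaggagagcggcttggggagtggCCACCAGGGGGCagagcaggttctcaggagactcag
Fragment near Cntfr, other match, chr4:41601407-41601466, plus strand: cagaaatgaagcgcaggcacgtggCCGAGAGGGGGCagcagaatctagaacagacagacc
Wnt10a fragment, first match, chr1:74853001-74853060, plus strand: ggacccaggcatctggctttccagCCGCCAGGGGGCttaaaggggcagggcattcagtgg
Wnt10a fragment, second match, chr1:74853140-74853199, plus strand: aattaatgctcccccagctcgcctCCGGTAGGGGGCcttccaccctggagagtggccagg
Fragment near Abt1, chr13:23496970-23497029, minus strand: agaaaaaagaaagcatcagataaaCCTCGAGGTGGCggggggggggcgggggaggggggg
Fragment near Arhgef1, chr7:25732076-25732135, plus strand: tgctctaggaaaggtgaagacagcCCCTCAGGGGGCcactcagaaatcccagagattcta
Fragment near Hfe2, chr3:96307170-96307229, minus strand: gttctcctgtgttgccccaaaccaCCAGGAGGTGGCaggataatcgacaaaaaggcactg
The match labelled as stricter has AC as the first 2 of its 3 free bases. A match is a description of the letters and not a measured binding site.

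The second set was chosen because these fragments were called from Hox promoters more than 10 Mb away and, as whole fragments, held more of the dinucleotide CG per kb than the median shared fragment. CpG islands are stretches dense in this dinucleotide. Each sequence shown is the stretch of 120 bases with the most CG in the fragment outside exons, with CG in capitals.
Fragment near Cbx8, chr11:118907863-118907982, plus strand: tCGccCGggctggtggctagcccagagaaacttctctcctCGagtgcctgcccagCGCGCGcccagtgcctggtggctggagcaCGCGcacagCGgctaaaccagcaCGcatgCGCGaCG
Lmx1b fragment, chr2:33487095-33487214, plus strand: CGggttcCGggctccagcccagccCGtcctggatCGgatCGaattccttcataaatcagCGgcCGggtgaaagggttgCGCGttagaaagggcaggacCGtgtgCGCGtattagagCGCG
Vax2os1 fragment, chr6:83654141-83654260, plus strand: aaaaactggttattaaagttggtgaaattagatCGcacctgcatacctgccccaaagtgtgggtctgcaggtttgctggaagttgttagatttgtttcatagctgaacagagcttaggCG
The stretch near Cbx8 held 13 CG, that of Lmx1b 14, and that of Vax2os1 2. The Vax2os1 fragment as a whole held 40.3 CG per kb, so most of its CG lay in sequence not shown here.

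The number of baits per fragment fell off steadily. Of the unbaited fragments, 22911 were called from 1 bait, 6098 from 2, 2469 from 3 and 1336 from 4. At the threshold, 750 fragments had 5 baits. The shared fragments had a median of 6 baits and a highest value of 30, and 378 of them had 10 or more and 12 had 20 or more. Those with 5 baits had a median length of 4.14 kb, a typical call distance of 118 kb and typical reads of 13, against 4.34 kb, 134 kb and 13.5 for those with 4 baits. Baits lay on both sides of 70.4% of the first and 60.9% of the second, and the median of the best score was 10.3 and 9.29.

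**Figure D1:**
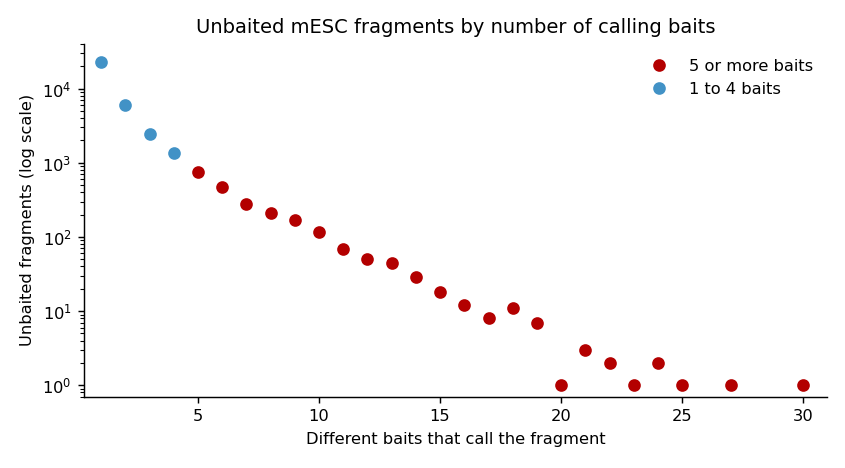
Number of unbaited mESC fragments (vertical axis, log scale) by the number of different baits that called them (horizontal axis), with the 2260 shared fragments in red. Counts fell from 22911 fragments with 1 bait to 750 with 5 and 1 fragment with 30.

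Shared fragments held annotated transcription starts more often than fragments called from fewer baits. Of the 2260, 478 held an annotated transcription start, 887 an exon without a start, 236 only intron and 659 no gene. The share with a transcription start was 21.2% (Wilson 95% interval, 19.5 to 22.9), against 16.2% (15.1 to 17.4) of fragments with 3 or 4 baits, 12.2% (11.4 to 13.01) with 2 and 8.57% (8.21 to 8.94) with 1. The share in introns ran the other way, from 23.8% (23.2 to 24.3) with 1 bait to 10.4% (9.25 to 11.8) of shared fragments. The share on no gene was 29.2% (27.3 to 31.1) of shared fragments and 30.9% (29.4 to 32.4) with 3 or 4 baits, and these intervals overlapped. It was 33.4% (32.3 to 34.6) with 2 baits and 38.3% (37.7 to 39.0) with 1. These shares were not split by fragment length. For 331 of the 478 shared fragments with a start, a gene that started there was itself named among the listed baits. Where those baits lay was not checked. These and all later intervals cover counting error only, and calls of one bait or one neighbourhood are not independent of each other.

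The composition of shared fragments also differed from that of other fragments. Their median GC content was 48.8% (quartiles 45.8 and 51.9), against 47.3% with 3 or 4 baits, 46.4% with 2, 45.3% with 1 and 40.7% for the 770289 unbaited fragments without a listed call. The density of CG rose in the same order, from 6.23 per kb without a call to 10.2, 11.02, 11.8 and 13.2 per kb. Shared fragments had a median length of 4.28 kb, close to the 4.26 kb of fragments with 3 or 4 baits and above the 3.64 kb of those with 1 bait. Fragments without a call had a median of 2.00 kb. Whether length, GC content or the density of promoters takes part in the number of calls was not tested.

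More listed baits lay around shared fragments than around fragments called from fewer baits. A median of 30 listed baits (quartiles 21 and 37) lay within 500 kb of a shared fragment, against 21, 17 and 12 for fragments with 3 or 4, 2 and 1 baits. Even so, the median shared fragment was called from 22.2% of the listed baits within 500 kb. No call joined adjacent fragments, so a bait next door could not count. When adjacent baits were passed over, the nearest listed bait called the fragment for 55.1% (53.0 to 57.1) of shared fragments and for 28.3% (27.7 to 28.9) of fragments with 1 bait. This share must rise with the number of calls.

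Chromosomes 11 and 7 held the most shared fragments, with 346 and 327. Chromosome 15 had the highest share of its unbaited fragments shared, at 12.6% or 173 fragments, followed by chromosome 7 at 11.5% and chromosome 17 at 10.3%. Chromosomes 18 and X had 16 each, or 1.62% and 2.73%. When shared fragments less than 250 kb apart were joined, they fell into 333 loci, of which 133 held 1 shared fragment. The 32 loci with 20 or more held 1173 of the 2260. The locus with the most, on chromosome 7 from 30937713 to 31875157, had 70 shared fragments and 48 baits, led by 4930479M11Rik with 52 and Arhgap33 with 38. A locus on chromosome 4 from 40673954 to 41658699 had 68 fragments and 30 baits, and the locus around Aurkb, Shbg and Polr2a on chromosome 11 had 67 fragments and 68 baits.

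Shared fragments lay beside one another. A directly neighbouring shared fragment was found for 919 of 2260, or 40.7% (38.7 to 42.7). A shared neighbour was found for 14.4% (13.3 to 15.6) of fragments with 3 or 4 baits, 6.15% (5.57 to 6.78) with 2 and 1.72% (1.56 to 1.89) with 1. Of the 4520 neighbouring positions of shared fragments, 24.2% were shared fragments, 31.3% were called from 1 to 4 baits, 20.4% were listed baits or named fragments and 24.03% were not called. Next to a listed bait lay 36.4% (34.4 to 38.4) of shared fragments and 13.5% (13.1 to 13.97) of fragments with 1 bait. In 548 pairs of neighbouring shared fragments, the median pair had 50% of all its baits in common, and 80% of the baits of the member with fewer. In 1 pair no bait was in common.

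Counted as unbroken runs of neighbouring fragments, the shared fragments formed 1712 runs, of which 1341 were single fragments, 115 had 3 or more and 14 had 5 or more. The longest run lay beside the Hoxc cluster, at chr15:102990272-103025271, with 10 fragments over 35.0 kb. Of its 12 baits, Hoxc5, Hoxc8 and Mir196a-2 called all 10 fragments and Hoxc6, Hoxc11 and Gm17649 called 9. The next run, chr13:21999422-22023956 in the Hist1 region, had 8 fragments. Abt1, Prss16 and the histone gene Hist1h4h called all 8 of them. Runs of 6 lay at chr7:31577284-31607897, with 20 baits led by 4930479M11Rik and the fatty acid receptor genes Ffar1 and Ffar3, and at chr7:16598609-16654145, with 9 baits led by Zfp541 and the homeobox gene Meis3. A run of 5 fragments at chr17:35274002-35297297 had 32 baits and ended with the most shared fragment of the genome.

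That fragment, at chr17:35292114-35297297, held an annotated start of Prrc2a, in the MHC class III region. It was called from 30 of the baits, 18 to its left and 12 to its right. The reads ran from 5 for Gm16279 at 739 kb to 85 for Prrc2a at 8.95 kb. Nfkbil1 had 50 reads at 78.2 kb and a score of 32.95, and the bait named for SNORD83.2 had 61 reads at 86.0 kb and the highest score of the fragment, 41.26. To the left, 59 reads came from RP23-115O3.9 at 34.6 kb, 38 from D17H6S53E at 26.4 kb and 32 from Ly6g5b at 40.6 kb. The remaining left-hand calls had fewer reads, such as 20 from the splicing factor gene Lsm2 at 176 kb and 12 from the sialidase gene Neu1 at 229 kb. By score Lsm2, at 15.6, stood above Ly6g5b at 14.06 and D17H6S53E at 12.33. The gene of the inflammatory cytokine Tnf had 12 reads at 46.6 kb and a score of 5.42. The farthest bait, that of the chromatin reader Brd2, lay 1036 kb away with 12 reads. The class I antigen gene H2-D1, at 106 kb, had 10 reads. Within 500 kb, 28 of 48 listed baits called the fragment.

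The fragment at chr11:69547556-69553415 held an annotated start of Polr2a, which encodes the largest subunit of RNA polymerase II, and was called from 27 baits. The Polr2a bait itself had 80 reads at 13.8 kb. On its right, Plscr3 had 46 reads at 111 kb, 2810408A11Rik 38 at 165 kb with the highest score of 21.71, and the translation factor gene Eif5a 32 at 182 kb. On its left, the macrophage marker gene Cd68 had 29 reads at 70.4 kb, and Fxr2 and the Sox family gene Sox15 had 26 each, at 104 kb and 82.1 kb. Reads were therefore not ordered by distance on the right-hand side. The clock gene Per1 had 5 reads at 642 kb, and Snord118 had 7 at 662 kb.

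To the left of it on the same chromosome lay 2 more of the most shared fragments. The fragment at chr11:68852838-68855286, 3.86 kb from the start of the mitotic kinase gene Aurkb and outside any gene, had 24 baits. Tmem107 gave 68 reads at 30.8 kb, Snord118 63 at 34.1 kb, and Hes7, a Notch target of the segmentation clock, 49 at 82.3 kb with the highest score of 25.61. A second group of 12 baits lay from 285 to 878 kb to the right and had 6 to 13 reads each, with Eif5a the farthest at 12 reads. The fragment at chr11:69422918-69427562, 2.88 kb from Shbg, had 23 baits, 14 to its left. Fxr2 and the ephrin gene Efnb3 had 50 reads each, at 21.4 kb and 48.7 kb. The farthest, Tmem107, had 9 at 540 kb.

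The fragment at chr2:25129097-25133537 covered exons of Anapc2, a subunit of the anaphase promoting complex, and had 24 baits, 12 on each side. All its calls came from baits within 326 kb. The strongest reads were those of the nearest baits, Tmem210 with 55 at 17.6 kb and Tmem203 with 42 at 21.2 kb. A830007P12Rik, at 81.4 kb, had 36 reads and the highest score, 18.44. Nrarp, a Notch feedback inhibitor, had 23 reads at 94.0 kb, and the NMDA receptor gene Grin1 had 11 at 45.6 kb. At this fragment 24 of 49 listed baits within 500 kb were called.

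**Figure D2:**
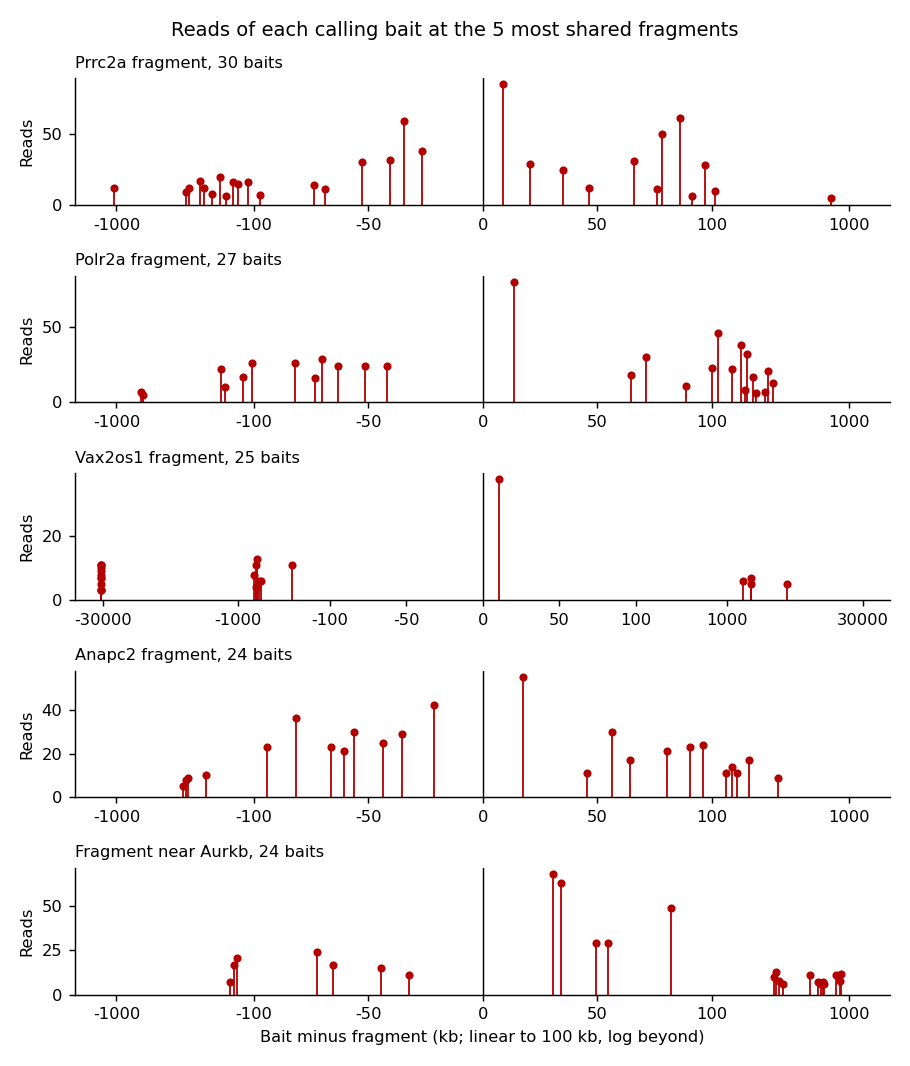
Reads (vertical axis, weighted mean over replicates) of every calling bait at the 5 fragments with the most baits, placed by the distance of the bait from the fragment in kb (negative, bait at the lower coordinate). The axis is linear to 100 kb and logarithmic beyond. The Vax2os1 panel, with its own axis range, shows 12 baits at about 31500 kb that had 3 to 11 reads, and the other panels show baits on both sides with most reads near the fragment.

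The fragment at chr6:83652405-83654264, in the antisense gene Vax2os1 beside the eye-field homeobox gene Vax2, differed from these in that only 2 of its 25 baits lay within 500 kb. The Vax2os1 bait gave 38 reads at 10.6 kb, and Tet3, which encodes an enzyme of DNA demethylation, 11 at 262 kb. Of the others, 7 baits from Dok1 to Rtkn lay 567 to 675 kb away with 4 to 13 reads, Lbx2, a homeobox gene, having the most. Emx1, a homeobox gene of the cortex, had 6 reads at 1485 kb, and the blood and neural factor gene Gata2 5 at 4488 kb. Between them lay Fbxo41, with 5 reads at 1803 kb, and the early growth response gene Egr4, with 7 at 1811 kb. The remaining 12 baits were those of the Hoxa cluster and its neighbour Evx1, from 31392 to 31539 kb away. Their reads ran from 3 to 11 and their scores from 5.07 for Hoxa13 to 41 for Hoxa11as. The adjoining fragment, chr6:83651037-83652404, repeated the pattern with 22 baits, of which Hoxa11as had 19 reads and a score of 83.16 at 31454 kb and Hoxa6 12 reads at 31491 kb.

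Among the other most shared fragments, chr13:23494772-23501060 near Abt1 had 22 baits, among them 7 histone genes. Abt1 gave 107 reads at 15.9 kb and Hist1h4h 25 at 123 kb. The vomeronasal receptor genes Vmn1r191 to Vmn1r211 lay 553 to 1226 kb away and had 4 to 7 reads. Across them, at 1364 to 1463 kb, Prss16 had 14 reads and Zfp184 9. The fragment chr7:25726328-25732147 had 21 baits, the strongest reads being 77 from a bait named only uce at 5.42 kb and 30 from the ribosomal protein gene Rps19 at 59.9 kb. Its farthest bait, the urokinase receptor gene Plaur, had 10 reads at 480 kb. The fragment chr17:35169173-35174418, at the start of the meiotic recombination gene Msh5, had 21 baits that all lay within 220 kb, with 90 reads from Ng23 at 8.43 kb. On chromosomes without a fragment among these, the most shared were at or near Wnt1 (19 baits), Best2 (18), Hfe2 (17), Pcdhgc5 (17), Timeless (16), Wnt10a (15), Nxf1 (15), Epo (14), Cntfr (12), Eif2b5 (11), Dad1 (10), Wdr82 (9), L1cam (9) and Hsp90aa1 (8).

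The baits with the most shared fragments came from a few gene groups. Abt1 had 60 and the 15 highest had 39 or more, against a median of 2 among the 3716 baits with any and a single shared fragment for 1467 of them. Of these 15, 7 lay in or beside the Hoxc cluster and 6, including Abt1, Btn1a1, Btn2a2 and Zfp184, in the Hist1 region, and the others were 4930479M11Rik and Fev. Hoxc5 called 56, Hoxc8, Hoxc11 and Gm17649 52 each, and Mir196a-2 50. Hist1h4h called 49 and Hist1h2ae 39. Fev, which encodes a factor of serotonin neurons, called 41, at a median distance of 127 kb and with scores up to 99.89. Of the unbaited calls of Hoxc6, 97.6% went to shared fragments, and of those of Abt1 61.9%.

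Hox genes, which pattern the body axis and stand in clusters, were the list with the highest share. Of 31 listed Hox baits, 30 had a shared fragment, or 96.8% (83.8 to 99.4), against the 22.8% of all listed baits. They called 152 shared fragments, a median of 24 per bait. On 96 fragments 5 or more baits of the list met, of which 42 lay on chromosome 15, 26 on chromosome 11, 22 on chromosome 6 and 6 on chromosome 2. Calls of Hox baits to these fragments had median reads of 24, 35, 28 and 47 in that order. The highest number of Hox baits on 1 fragment was 10, and 1 fragment had only Hox baits. Baits of 1 cluster are neighbours and not independent of each other.

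The replication-dependent histone genes stand in groups such as Hist1 on chromosome 13 and Hist2 on chromosome 3. Of 35 listed baits 27 had a shared fragment, or 77.1% (61.0 to 87.9). They called 89, with 115 of 353 calls over 1 Mb. On 32 fragments 5 or more histone baits met, with up to 15 on 1 fragment. All 32 lay between 21867216 and 23851043 on chromosome 13. The reads of histone baits on them were low, a median of 9 with a range of 3 to 94. Hist1h2bl called 35 at a median distance of 1685 kb. Histone genes are near-identical copies, to which reads are harder to assign than to single genes.

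Keratin and keratin-associated protein genes, taken as 1 list, had a shared fragment for 57 of 75 baits, or 76.0% (65.2 to 84.2). Keratins encode the filaments of epithelia and hair. The name pattern of this list also took Krtdap. On 20 fragments of chromosome 11 and 12 of chromosome 15, 5 or more baits of this list met. For the calls of the list's own baits on these fragments, median distances were 475 kb and 338 kb and median reads 9 and 10. The median distance of all calls to shared fragments was 119 kb. Krt78 and Krt86 called 15 each. Most type I keratin genes stand on chromosome 11 and type II genes on chromosome 15.

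The clustered protocadherins, cell surface proteins of neurons, had a shared fragment for 14 of 20 baits, or 70.0% (48.1 to 85.5), and all of these calls went to 5 fragments. The 5 lay within chr18:37839810-37916454, annotated in this build as Pcdhgc5. The most shared, chr18:37903079-37906202, was called from 17 baits, 13 of them clustered protocadherins. Its strongest call came from Pcdh1, a protocadherin outside the clusters, with 20 reads at 466 kb and a score of 16.75. Pcdhb19 had the most reads of the Pcdhb baits there, 17 at 247 kb, and Pcdhb3 the longest distance, 447 kb with 9 reads. Pcdhgc5 itself had 19 reads at 69.6 kb. Pcdha11 reached the fragments at either end of the group, 751 and 822 kb away, with 7 reads each.

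The olfactory and vomeronasal receptor genes stood at the other end. Of 476 listed baits 30 had a shared fragment, or 6.30% (4.45 to 8.85), which is below the 22.8% of all listed baits. Even so, 4 fragments brought 5 or more of them together. On chromosome 11, 3 fragments between 74180979 and 74195584 were called from up to 10 olfactory receptor baits, with 4 to 64 reads. The fourth was the fragment near Abt1.

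Developmental transcription factors other than Hox were also often joined to shared fragments. Of 78 homeobox, paired and LIM factor baits 44 had one, or 56.4% (45.4 to 66.9), and of 45 T-box, Gata, Hand, Sox and forkhead baits 24, or 53.3% (39.1 to 67.1). No fragment had more than 4 baits of the first list or 2 of the second, so these baits met others. Evx1, which borders Hoxa, called 26 and Evx2, which borders Hoxd, 12. Foxe3, a gene of the lens, called 18 and its neighbour Foxd2 16, both at a median of 617 kb. Pax3, a gene of neural crest and muscle, called 12 at a median of 3263 kb with scores up to 56.32.

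Genes of the pluripotent state did not stand out. Of 24 listed baits 6 had a shared fragment, or 25.0% (11.999 to 44.9), close to the share of all listed baits. Tbx3 had 13, Klf2 had 2, and Dppa5a, Utf1, Tet1 and Pou5f1 had 1 each. The Pou5f1 call, to a fragment with 11 baits at 366 kb, had 6 reads. Nanog had 14 unbaited calls and Sox2, Klf4 and Esrrb 3, 3 and 4, none to a shared fragment. Tbx3 is also a limb and heart factor, and its 13 fragments lay at a median of 19903 kb.

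The remaining lists had shares between 15.8% and 50.0%. MHC genes had a shared fragment for 9 of 18 baits, cytosolic ribosomal proteins for 18 of 51, respiratory chain and ATP synthase genes for 18 of 61, microRNA genes for 52 of 214 and Zfp zinc finger genes for 51 of 220. Chemokines and their receptors had 9 of 43, serpins 4 of 25 and detoxifying enzymes 12 of 76. Single baits reached high numbers in these lists too. Rpl36 called 19, Cox6b1 15, Zfp541 24 and Serping1, the complement C1 inhibitor, 8. None of these lists put 5 of its baits on 1 fragment.

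Calls to shared fragments had a somewhat shorter median distance and a higher median score. The median distance was 119 kb (95% interval from the order of the values, 116 to 122), against 126, 135 and 142 kb for fragments with 3 or 4, 2 and 1 baits. Median reads were 12 or 13 in all 4 groups. The median score was 7.21, against 6.52, 6.28 and 6.04. A score of at least 10 was reached by 24.6% of calls to shared fragments, against 13.8%, 9.79% and 7.45%. The strongest call to a shared fragment joined the ribosomal protein gene Rps14 to an intron of Ndst1, an enzyme of heparan sulfate synthesis, with 340 reads, a score of 346.19 and 51.5 kb between them. The next joined the cell cycle inhibitor gene Cdkn2c to an exon of Dmrta2 with 135 reads and a score of 170.59 at 315 kb. Calling baits lay on both sides for 79.5% (77.8 to 81.1) of shared fragments, a share that depends on the number of baits and was 70.4% at 5 baits and 92.6% at 15 or more.

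Long calls were a small part but a larger one than elsewhere. Of calls to shared fragments 929, or 5.64%, exceeded 1 Mb, against 2.74%, 1.75% and 1.38% in the other groups. At least 1 such call was held by 326 shared fragments, while for 1681 all calls lay within 500 kb. Calls over 10 Mb numbered 208, with 76 on chromosome 11, 39 on chromosome 6 and 26 each on chromosomes 2 and 5. Hoxb2 had 9 of them, Tbx3 8, Hoxb6 7 and Cbx8, which encodes a chromobox protein of Polycomb complexes, 6.

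On 10 fragments 5 or more baits lay over 10 Mb away. Of these, 9 are described here by place. Beside Vax2, the far baits of 3 neighbouring fragments were those of the Hoxa cluster and Evx1, 31.4 to 31.5 Mb away, and Ccnd2 at 43.4 Mb. Near Cbx8, most far baits of 4 fragments were Hoxb baits 22.7 to 22.8 Mb away. At Lmx1b, a LIM homeobox gene of limb and kidney, 2 fragments were called from Hoxd baits and from Dlx1, Dlx1as, Sp9 and others at 15.5 to 41.1 Mb. Reads of these calls were few. The fragment near Cbx8 with the most baits, chr11:118905177-118908719, had 12, of which 9 lay over 10 Mb away with 4 to 8 reads, a median of 6 and a highest score of 23.35. The Lmx1b fragment with the start had 3 to 5 reads from its 9 far baits and a highest score of 14.6.

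As a group these 10 fragments were dense in CG. Their median was 30.0 CG per kb, from 9.78 to 40.3, against 13.2 (quartiles 9.96 and 17.99) for the other 2250 shared fragments. The lowest value, that of the Vax2os1 intron fragment chr6:83654265-83655695, was below the median of the others. They were short, with a median of 1.99 kb against 4.29 kb. The core motif stood in 2 of the 10. Neighbouring fragments are not independent places, and no Hi-C value was available for them because the 25-kb Hi-C list ends at 1 Mb.

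The Hi-C library gave a measure that the choice of fragments did not use. The paper calls these data pre-capture Hi-C, so they may not be independent of the CHi-C libraries. Of all unbaited cis calls under 1 Mb, 13.4% had both ends in 2 bins of 25 kb that Hi-C called as interacting at an FDR under 0.05. For calls to shared fragments the share was 19.6% (18.95 to 20.2), or 3042 of 15546, against 13.3% (12.7 to 13.9) with 3 or 4 baits, 12.01% (11.4 to 12.6) with 2 and 9.85% (9.47 to 10.2) with 1. The difference from fragments with 3 or 4 baits lay under 200 kb. Under 50 kb the shares were 22.8% (21.6 to 24.2) and 13.9% (12.7 to 15.1) for shared fragments and those with 3 or 4 baits, and from 50 to 100 kb they were 25.9% (24.4 to 27.4) and 16.6% (15.1 to 18.2). From 100 to 200 kb they were 18.2% (17.03 to 19.4) and 11.6% (10.6 to 12.8). From 200 to 300 kb the intervals of the 2 groups overlapped, at 11.2% (9.89 to 12.6) and 9.80% (8.55 to 11.2), and they also overlapped from 300 to 500 kb and from 500 to 1000 kb. Against fragments with 1 bait a difference remained in the last class, at 23.3% (20.3 to 26.7) against 12.7% (11.1 to 14.6).

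**Figure D3:**
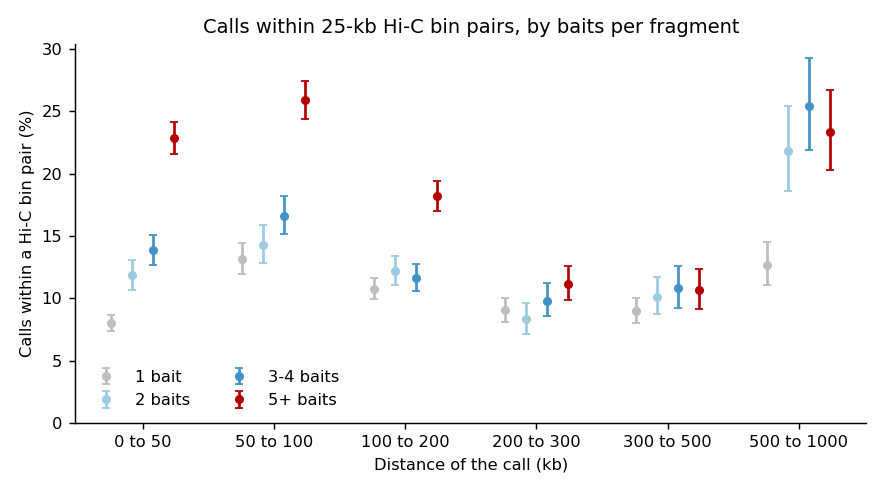
Share of calls whose ends fell in 2 Hi-C bins of 25 kb called as interacting at an FDR under 0.05 (vertical axis, percent, bars for Wilson 95% intervals) by call distance in kb, for fragments with 1, 2, 3 or 4, and 5 or more baits. Shared fragments stood at 22.8%, 25.9% and 18.2% in the 3 classes under 200 kb and overlapped the group with 3 or 4 baits beyond.

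Much of this rested on Hox and histone neighbourhoods. Of calls to the 240 shared fragments under 1 Mb with a Hox or histone bait, 59.3% (56.9 to 61.6) lay within a Hi-C bin pair. Without them the share for shared fragments fell to 14.9% (14.3 to 15.5), against 12.8% (12.2 to 13.4) for fragments with 3 or 4 baits treated likewise. Shared fragments remained higher under 50 kb, at 15.8% (14.6 to 17.1) against 13.3% (12.2 to 14.6), from 50 to 100 kb, at 19.6% (18.2 to 21.1) against 15.6% (14.2 to 17.2), and from 100 to 200 kb, at 13.7% (12.6 to 14.9) against 11.1% (10.1 to 12.3). None of these 3 pairs of intervals overlapped, though the first came close, at 14.61 against 14.59. Calls that fall in 1 bin pair are not independent, so a gap this small under 50 kb decides nothing.

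Score and Hi-C went together. Among calls with a score of 5 to 6, 9.29% (8.48 to 10.2) of those to shared fragments lay within a bin pair, against 7.29% (6.58 to 8.08) for fragments with 3 or 4 baits. With a score of 20 or more the shares were 77.8% (74.4 to 80.9) and 65.8% (59.1 to 72.0). At least 1 of its calls was within a Hi-C bin pair for 1106 of the 2256 shared fragments with a call under 1 Mb. For the Prrc2a fragment it was 16 of 29 calls, for the Polr2a fragment 9 of 27, for the Nxf1 fragment 9 of 15, for the Anapc2 fragment 2 of 24 and for the fragment near Abt1 0 of 13.

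Promoters that shared a fragment were often called with each other. Among bait pairs under 1 Mb, 11.7% of 229455 were called together. Of 21058 pairs that met on a shared fragment 38.6% (37.9 to 39.2) were called together, against 31.2% (30.1 to 32.3) of pairs that met only on fragments with 2 to 4 baits and 8.18% (8.06 to 8.30) of pairs that met on none. Bait distance sets much of this, so the pairs were also compared at like distances. Under 50 kb the shares were 50.1% (48.5 to 51.6), 30.7% (28.5 to 33.0) and 30.1% (29.1 to 31.1). From 100 to 200 kb they were 44.6% (43.2 to 46.0), 35.0% (32.8 to 37.3) and 19.4% (18.8 to 19.9). From 300 to 500 kb the first 2 groups stood at 22.6% (21.2 to 24.03) and 26.1% (23.6 to 28.8), the other way round. Pairs without a common fragment stood at 6.97% (6.73 to 7.22). The intervals of the first 2 groups overlapped there, and also from 200 to 300 kb and from 500 to 1000 kb. The calls between baits come from the same libraries as those that chose the fragments. Pairs that met on a fragment are by definition pairs of baits with unbaited calls, and the number of calls per bait was not matched. Adjacent baits could not be called together. How far these points set the differences was not tested.

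**Figure D4:**
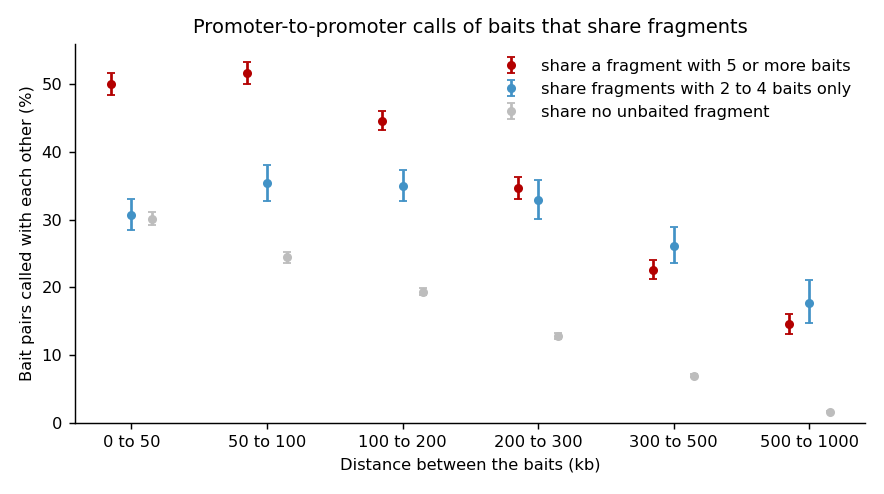
Share of bait pairs called with each other (vertical axis, percent, bars for Wilson 95% intervals) by the distance between the baits in kb, for pairs that met on a shared fragment, pairs that met only on fragments with 2 to 4 baits, and pairs that met on no unbaited fragment. Pairs on shared fragments stood highest under 200 kb, at 50.1%, 51.7% and 44.6%.

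The core of the CTCF motif, searched on both strands as CC, any 3 bases, AGG, any base and GGC, was found in 613 of 2260 shared fragments, or 27.1% (25.3 to 29.0). It stood in 5.33% of the unbaited fragments without a listed call, and in 23.1% (21.8 to 24.5), 20.6% (19.6 to 21.6) and 15.4% (14.9 to 15.9) of those with 3 or 4, 2 and 1 baits. Longer fragments hold more matches, so classes of like length were compared. From 2 to 4 kb the shares were 20.5% (17.7 to 23.6) for shared fragments, 15.8% (13.8 to 17.96) with 3 or 4 baits, 10.9% (10.2 to 11.6) with 1 and 5.01% (4.91 to 5.11) without a call. From 4 to 6 kb they were 26.1% (22.7 to 29.8), 21.6% (19.1 to 24.3), 17.3% (16.3 to 18.4) and 8.83% (8.65 to 9.01). The intervals of shared fragments overlapped those of fragments with 3 or 4 baits in all 6 length classes, and those without a call stood lower in each. GC content rose with the number of baits as well, and its part in the number of matches was not tested. The stricter form, with CCAC at its start, stood in 5.31% (4.46 to 6.31) of shared fragments, 5.31% (4.64 to 6.07) with 3 or 4 baits, 2.89% (2.68 to 3.11) with 1 and 0.592% (0.575 to 0.609) without a call.

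**Figure D5:**
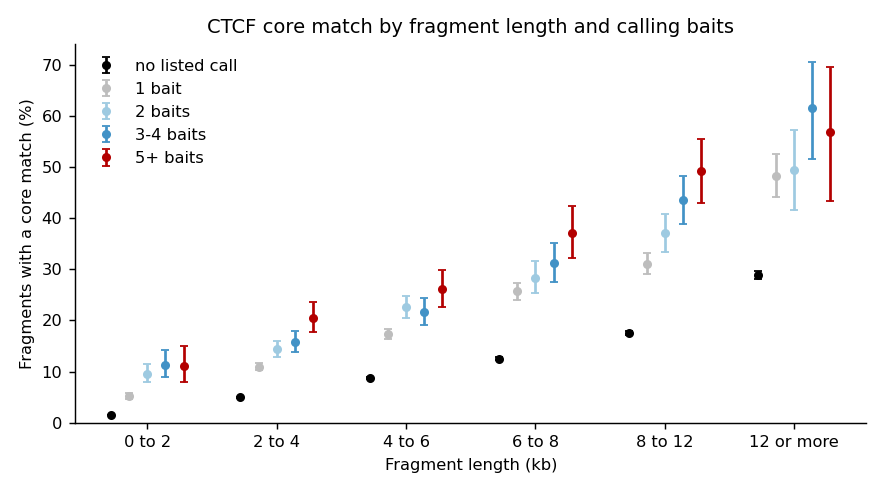
Share of fragments with at least 1 match to the 12-letter core of the CTCF motif (vertical axis, percent, bars for Wilson 95% intervals) by fragment length in kb, for fragments without a listed call and with 1, 2, 3 or 4, and 5 or more baits. Fragments without a call stood lowest in every length class, and shared fragments reached 20.5% from 2 to 4 kb and 49.2% from 8 to 12 kb.

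The strand of the match was compared with the side of the calling baits where all matches of a fragment were on 1 strand. Among shared fragments with all baits on 1 side, the match pointed toward them in 71 of 104, or 68.3% (58.8 to 76.4). With baits on both sides included and counted by the side with more, it was 281 of 499, or 56.3% (51.9 to 60.6). Fragments with 1 bait had 58.8% (57.1 to 60.5), which overlaps both. For the stricter form the shares were 22 of 30, or 73.3% (55.6 to 85.8), for shared fragments and 70.7% (67.1 to 74.1) for fragments with 1 bait. Of the letters shown above, both Wnt10a matches lay on the strand that runs toward 13 of its 15 baits. The 2 matches near Cntfr ran in opposite directions, the stricter one toward 7 baits and the other toward 5. The match near Abt1 ran toward 13 baits and away from 9, and that near Arhgef1 toward 13 and away from 8. The match near Hfe2 ran toward 7 baits and away from 10. None of the 5 most shared fragments except that of Anapc2 held a match, a statement about these letters only.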

How the data were processed

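Promoter CHi-C was measured in 2 biological replicates of mESCs and Hi-C in 1 library. The authors mapped reads to mm9 with HiCUP (Bowtie 1.1.0 per the processing notes), removed artefacts and duplicates, and ran CHiCAGO on both replicates together. The deposited read value is a weighted, rounded mean, treated as a score, and the deposited CHiCAGO score is at least 5. The authors called Hi-C bin pairs with HOMER 4.7, and deposited the count of read pairs, the read pairs expected from distance and coverage, and an FDR, an adjusted p-value. A further 10 columns of the Hi-C list were not used.

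The mm9 reference (NCBIM37) was cut at every HindIII site and all 52640 listed fragments matched this digest. A shared fragment is a cis other end without a name, never listed as a bait and called from at least 5 baits. The list held 101841 calls, and its 579 trans calls were left out. Distances run between midpoints. A call lay within a Hi-C bin pair when both midpoints did. Annotation was GENCODE vM1, and sequences came from the reference. The listed baits are those with a call, and baits without one are not counted. Loci join shared fragments within 250 kb. Intervals are Wilson or order-statistic 95% intervals for counting error only, since replicates were pooled before calling, and no test was run. Named fragments are the 10 with the most baits, the first of each chromosome and the 5 longest runs. Named genes are baits of those, the 15 baits with the most shared fragments and up to 4 per list, and others in the text were chosen after their values were seen. The fragments and gene lists were chosen with earlier results of these data known. The counting was tested on simulated data with known answers. Python 3.11.15 with pandas 2.3.3, scipy 1.17.1 and matplotlib 3.10.9 was used. Results for 1 gene are not reported here.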

Additional observations from a re-analysis of the deposited data

How the results depend on the processing

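The values were computed again under 12 alternatives, and under 2 more chosen after the data were seen, which left out shared fragments with a Hox or histone bait or with a transcription start. Of 77 values, 36 stayed within the counting interval (or within 1.5 times the count) and 41 moved. The browser list moved none beyond these limits. Moves with the threshold follow from its construction, and the cause of the others was not tested.

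With a score of at least 10, 211 fragments remained shared, or 3.73% of unbaited fragments, with baits on both sides for 72.5%, a median distance of 97.9 kb, 58.3% of calls in a Hi-C bin pair, 46.9% of bait pairs called together and the core motif in 25.1%. At least 4 baits gave 3596 fragments, or 10.3%, with 72.6% on both sides, 18.01% in Hi-C and 37.9% of bait pairs. At least 6 baits gave 4.31%, with 84.0% on both sides, 21.2% in Hi-C and 37.7% next to another. At least 10 baits gave 378 fragments, or 1.08%, with 90.7% on both sides, 27.2% next to another, 125 kb, 23.7% in Hi-C, 40.1% of bait pairs and the motif in 29.6%. With baits on neighbouring fragments counted as 1, 5.81% were shared and 81.5% had baits on both sides. With calls of at most 1 Mb, 6.05% were shared, the median distance was 110 kb and 18.8% were in Hi-C. Without fragments of Hox or histone baits, 5.76% were shared, 81.4% had baits on both sides, 37.3% lay next to another and 14.9% of calls were in Hi-C. Without fragments with a transcription start, 5.08% were shared, 34.9% lay next to another and 40.6% of bait pairs were called together.

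An FDR under 0.01 left 17.2% of calls in Hi-C, and every listed bin pair 40.99%. Within 2 fragments, 54.9% had a shared neighbour. The shorter core CCCTC stood in 99.4% of shared fragments, but also in 97.7% of those with 1 bait and 80.7% without a call. From 2 to 4 kb it stood in 99.9% of shared fragments and 98.1% without a call, so it hardly separates them. The stricter core stood in 5.31% of shared fragments.

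No paired analysis was possible because the calls were made on both replicates together, and no replicate was left out for the same reason. Depth limits the list to pairs that reached a score of 5, so an uncalled pair is not a pair without contact, and far calls rest on few reads.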
